A study of Mus musculus with 24 samples.

Results

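A set of 9 liver genes of carbohydrate metabolism, Slc2a2, Gckr, Pfkfb1, Pfkl, Pklr, Khk, Pck1, Fbp1, and G6pc, was followed through the liver RNA-Seq of lipodystrophic and control mice. They were taken by name as 9 of the 23972 genes in the table of counts, and all 9 were found. RNA was from livers of female mice housed at 22°C and euthanized with free access to food. The 24 libraries fall into 7 of vehicle-treated control mice, 3 of control mice given FGF21, 6 of vehicle-treated Lmna ADKO mice, and 8 of Lmna ADKO mice given FGF21. Control mice were Lmna fl/fl without Adipoq-Cre, and Lmna ADKO mice were Lmna fl/fl with Adipoq-Cre, which deletes exons 10 and 11 of Lmna in adipocytes and not in hepatocytes. All mice were 12 to 14 weeks old at the start and had eaten a 60% high-fat diet for 4 weeks when they received vehicle (PBS with Pluronic) or an AAV8 vector expressing FGF21, and livers were taken 8 weeks later. The labels name the treatment a rescue, which was read as FGF21 from the description of the experiment.

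The liver takes up glucose through GLUT2, the product of Slc2a2, and traps it by phosphorylation, a step that the regulatory protein encoded by Gckr restrains at low glucose. Glycolysis then passes through phosphofructokinase (Pfkl), whose activity is set by the bifunctional enzyme of Pfkfb1, and ends at pyruvate kinase (Pklr), while fructose enters below phosphofructokinase through ketohexokinase (Khk). In the opposite direction, phosphoenolpyruvate carboxykinase (Pck1), fructose bisphosphatase (Fbp1), and the catalytic subunit of glucose phosphatase (G6pc) make glucose for release; glucagon and cAMP raise transcription of Pck1 and G6pc, insulin lowers it, and sugar raises Pklr and Khk through ChREBP, the product of Mlxipl.

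Promoter sequences of these genes are known for sites of these regulators, and a few are shown for the genes on which the results below turn. RefSeq windows on GRCm38.p6 were found for all 9 genes, 13 windows in all since some genes have more than 1 start, and the 250 bases upstream of each start were searched on both strands. The second start of Pklr, which lies in an intron of the longer transcript, has a stretch at chr3:89136373-89136571 (plus strand) with CACGGG, 5 bases of any kind, and CCCGTG at -170 to -154 in capitals. These are the letters of the carbohydrate response element known from this gene, and of 32851 windows only that of Pklr (0.00304%) holds them in this form. The pattern searched was that of Pklr itself, so this match was fixed in advance. Looser forms of the element were not searched, so the share says nothing of such elements in other genes.
Pklr: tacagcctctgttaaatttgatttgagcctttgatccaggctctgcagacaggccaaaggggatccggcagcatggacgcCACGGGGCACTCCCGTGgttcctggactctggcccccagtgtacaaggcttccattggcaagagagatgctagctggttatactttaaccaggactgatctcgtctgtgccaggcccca

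Khk is the 1 gene of the 9 with the E box CACGTG in its window (1 of 13 windows), a motif in 6.02% of all windows. The 30 bases at chr5:30921476-30921505 (plus strand) hold it at -71 to -66, with GTTAAT, the core of the motif bound by HNF1, 5 bases further on, and both are in capitals. They lie upstream of the RefSeq start but within the first exon of the Ensembl gene.
Khk: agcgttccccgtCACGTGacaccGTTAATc

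Pck1 and G6pc are the 2 genes of the 9 whose windows (2 of 13) hold TTACGT, the core of the cAMP response element of Pck1, which 2.4% of all windows hold. The motif searched was that of Pck1 itself, so the match in Pck1 was fixed in advance. In Pck1 it lies at -93 to -88, and the capitals upstream of it mark the HNF1 core GTTAAT read on the other strand. The stretch shown for Pck1 is chr2:173152823-173153047, and that for G6pc is chr11:101367542-101367571, both on the plus strand.
Pck1: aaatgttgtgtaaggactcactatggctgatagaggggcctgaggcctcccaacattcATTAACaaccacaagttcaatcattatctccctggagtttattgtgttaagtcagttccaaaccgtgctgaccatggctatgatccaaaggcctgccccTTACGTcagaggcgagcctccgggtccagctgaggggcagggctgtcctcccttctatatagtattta
G6pc: tgttttgctattTTACGTAAatcaccctga

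In G6pc the capitals join a match on each strand. The HNF1 core was found in 5 of the 13 windows, those of 5 of the 9 genes (Pck1, Khk, Gckr, G6pc, and Pfkfb1), against 6.43% of all windows. TATAAA was found in 3 of the 13 (Pklr, G6pc, and Pfkfb1), against 12.4%. The window of Gckr has its HNF1 core at -59 to -54, shown in capitals within chr5:31297492-31297521, plus strand. These 30 bases lie upstream of the RefSeq start but in exonic bases of the Ensembl gene.
Gckr: cagggttcttagGTTAATcatctccatggc

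Libraries were of even depth, with 19863304 to 21510054 reads counted on genes, so that the 9 genes were covered by 283 (Pfkfb1) to 91207 (Pck1) reads in any library. Lmna, deleted in adipocytes only, was not lower but higher in Lmna ADKO livers (log2 fold change 0.52, SE 0.12, adjusted p = 0.00322 with vehicle), and Fgf21 counts did not set the treated groups apart, with means between 4.01 and 7.99 CPM. Whether transcripts of the vector are counted on this gene is not known. The study reported an increase in plasma FGF21 after transduction. Hepatocyte markers were high in every library (67170 to 140837 CPM summed over 8 genes), and the adipocyte markers Adipoq, Plin1, and Lep averaged under 1 CPM in every group, while Cidec, listed with them and also expressed in steatotic hepatocytes, rose in Lmna ADKO livers. Summed over 4 genes, skeletal muscle markers reached 21.9 CPM in FGF21-treated Lmna ADKO livers (median 0). They were at most 0.27 CPM in any library of the other groups. None passed an adjusted p of 0.05 between genotypes with FGF21. Against controls, vehicle-treated Lmna ADKO livers had higher levels of 5 of 8 stellate cell markers, 2 of 6 cholangiocyte markers, 3 of 6 endothelial markers, 1 of 8 Kupffer cell markers, and 1 of 9 periportal markers, where 8.35% of all genes rose. They had lower levels of 6 of 9 pericentral and 3 of 9 periportal hepatocyte markers, 2 of 8 general hepatocyte markers (Cps1 and Serpina1a), and 1 of 6 endothelial markers, where 6.76% of all genes fell. Between genotypes with FGF21, 1.71% of all genes fell and 2.14% rose. There, 4 of 9 pericentral, 1 of 9 periportal, and 1 of 8 general hepatocyte markers fell and 1 of 6 endothelial markers rose. Their part in the results was not tested, and in bulk liver fewer cells of a type and less RNA per cell cannot be told apart. For each library, the difference of log2 CPM from the median of all libraries of its genotype was regressed on log2 exonic length over 9694 genes. By this length slope, vehicle-treated control library 3, FGF21-treated control library 3, and FGF21-treated Lmna ADKO library 7 stood apart. They had -0.154, -0.289, and -0.331 log2 units per doubling, against -0.109 to 0.128 in the others, the first of them nearest to that range. Results are therefore also given without these 3 libraries. Animal numbers in the labels have 3 digits in 6 of 7 vehicle-treated controls and 4 digits in 5 of 6 vehicle-treated Lmna ADKO mice, and what this difference stands for is not given.

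Levels per length differed widely among the 9 genes. Mean CPM per kilobase of exon over all libraries was 882 for Fbp1, 676 for Pck1, and 358 for Khk. It was 139 for G6pc, 110 for Pklr, 56.7 for Slc2a2, and 46.8 for Gckr. Pfkl and Pfkfb1, with 7.42 and 6.62 CPM per kilobase, were the lowest. All other levels are in CPM with library sizes scaled by TMM, and are compared only within a gene. Positions of genes are on GRCm38.

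The first comparison asks how loss of adipose tissue in Lmna ADKO mice was accompanied by changes of these genes in liver. With vehicle, Pklr rose to 1.43-fold of control and Gckr fell to 0.816-fold in Lmna ADKO livers, and the other 7 did not pass an adjusted p of 0.05. These 2 of 9 genes compare with 15.1% of all genes tested. None of the 9 also changed by more than 1.5-fold, against 8.48% of all genes, and for 0 of the 9 did the groups not overlap, against 7.95%. The shares of all genes, here and elsewhere, are over 23972 genes, among them many with few reads. With such genes removed by filterByExpr, 14699 remained and 1991 were called with the fold threshold, a higher share. At an unadjusted p under 0.05 edgeR found 5 of the 9, against 27% of all genes. DESeq2 found 3 at an adjusted p under 0.05, against 18.3% of all genes, and 0 with the fold threshold, against 8.98%. With FGF21 in both genotypes, 0 of the 9 passed the adjusted p in edgeR, against 3.85% of all genes (2.88% with the fold threshold), and 3 were at an unadjusted p under 0.05, against 16.9%. DESeq2 passed 2 and called 1 with the fold threshold, against 7.35% and 4.26% of all genes. The median log2 fold change of the 9 genes was 0.23 with vehicle and 0.0026 with FGF21, where that of all genes was 0.0027 and 0.018.

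**Figure D1:**
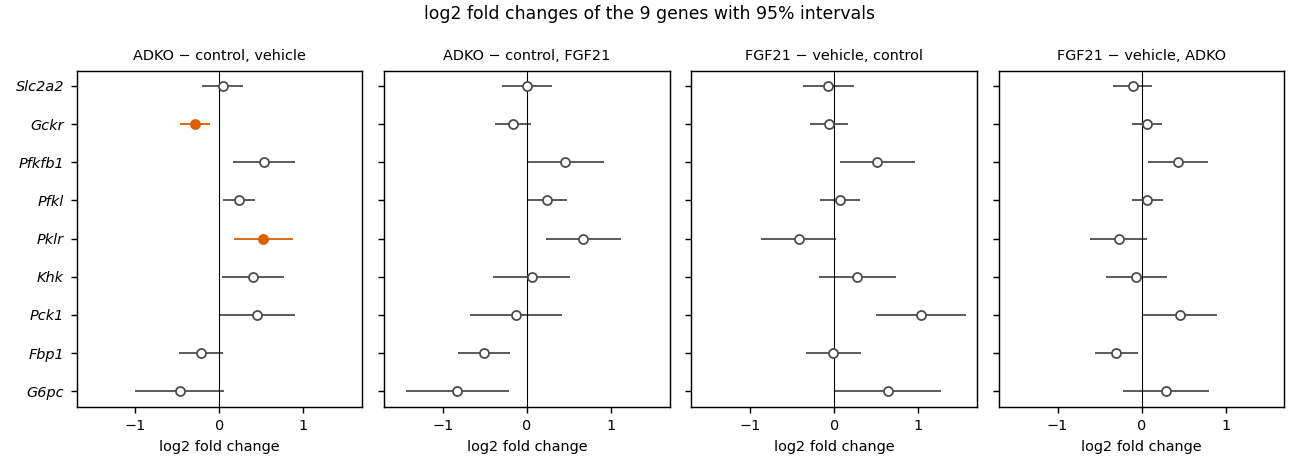
Log2 fold change (x axis) of each of the 9 genes (y axis) in 4 comparisons, with points for edgeR estimates and bars for their approximate 95% intervals. Filled points passed an adjusted p of 0.05, which only Gckr (-0.29) and Pklr (0.52) did, both between genotypes with vehicle.

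Slc2a2 (ENSMUSG00000027690, chr3:28697903-28731359, plus strand), the gene of the hepatic glucose transporter, had means of 315 to 340 CPM in the 4 groups. It ranged from 272 to 434 CPM (median 324) in vehicle-treated controls, was 382, 318, and 246 CPM in the 3 FGF21-treated controls, ranged from 300.2 to 396 CPM (median 337) in vehicle-treated Lmna ADKO livers, and from 246 to 383 CPM (median 297) in those given FGF21. All 4 groups overlapped. Lmna ADKO differed from control by a log2 fold change of 0.04 with vehicle (95% interval -0.20 to 0.28) and 0.0026 with FGF21 (-0.29 to 0.30).

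Gckr (ENSMUSG00000059434, chr5:31297443-31327314, plus strand), which encodes the regulatory protein that restrains glucose phosphorylation, was lower in Lmna ADKO livers. Vehicle-treated controls ranged from 184 to 269 CPM with a median of 226 and a mean of 225 ± 27.9 (SD, n = 7). Vehicle-treated Lmna ADKO livers ranged from 171 to 198 CPM with a median of 183 and a mean of 184 ± 8.65 (SD, n = 6). Of these 6, 4 lay below every control and all 6 below the control median. The log2 fold change was -0.29 (SE 0.093, adjusted p = 0.0298 in edgeR). Between -0.34 and -0.24 when any 1 library was left out, it passed an adjusted p of 0.05 in 8 of 13 such fits. It failed without Lmna ADKO library 1 (adjusted p = 0.0700) or 3 (0.0547), and without control library 5 (0.0805), 6 (0.0549), or 7 (0.0562). It also passed in DESeq2, without the 3 libraries that stand apart, and with the digits of the animal number as a covariate. Under the last setting no other of the 9 genes passed.

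With FGF21 the difference in Gckr did not pass the test. The 3 controls had 211, 234, and 202 CPM, and the 8 Lmna ADKO livers 163 to 209 CPM with a median of 194. The log2 fold change was -0.17 (95% interval -0.38 to 0.053, adjusted p = 0.470), with 6 of 8 Lmna ADKO livers below all 3 controls. That the genotype difference itself changed with FGF21 was not shown (interaction 0.13, 95% interval -0.16 to 0.41).

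Pfkfb1 (ENSMUSG00000025271, chrX:150588229-150643878, plus strand) encodes the liver form of the enzyme that makes and degrades the fructose bisphosphate isomer that activates phosphofructokinase. Vehicle-treated controls had 13.3 to 23.8 CPM (median 18.7), and vehicle-treated Lmna ADKO livers 21.4 to 29.8 CPM (median 25.9). Of the 6 Lmna ADKO livers, 3 were above every control and all 6 above the control median. Their log2 fold change was 0.53 (SE 0.19), with an adjusted p of 0.0559 in edgeR that missed the threshold, and 0.0341 in DESeq2. In edgeR it passed with filterByExpr (adjusted p = 0.0395), with only the groups compared (0.00501), and with the length slope as a covariate (0.0176). It passed in 1 of 13 fits that left out a single library. Without the 3 libraries that stand apart it was 0.56 (adjusted p = 0.0142), and with the digits of the animal number as a covariate 0.36 (adjusted p = 0.355).

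In FGF21-treated mice, Pfkfb1 was at 25.7, 21.02, and 29.8 CPM in controls and 24.2 to 64.1 CPM (median 29.3) in Lmna ADKO livers. The highest of these was library 7, one of those that stand apart, and the next was 45.3 CPM. FGF21 against vehicle gave log2 fold changes of 0.51 in controls and 0.44 in Lmna ADKO mice, at unadjusted p of 0.0344 and 0.0239, and neither passed adjustment (0.771 and 0.704). Apex2 overlaps Pfkfb1 on the other strand with a mean of 5.53 CPM.

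Pfkl (ENSMUSG00000020277, chr10:77986947-78010083, minus strand), the liver subunit of phosphofructokinase, was the most even of the 9 genes in vehicle-treated controls after scaling to its mean (coefficient of variation 7.48%). It was at 40.5 to 48.5 CPM (median 43.0) there and at 46.7 to 61.4 CPM (median 50.1) in vehicle-treated Lmna ADKO livers, of which 5 of 6 were above every control. This small difference (log2 fold change 0.23, SE 0.098) did not pass adjustment (adjusted p = 0.120). In edgeR it passed with only the groups compared (adjusted p = 0.0414) and with the length slope as a covariate (0.0454). It passed in 0 of 13 fits that left out a single library. Controls given FGF21 had 39.8, 48.0, and 50.3 CPM, and Lmna ADKO livers given FGF21 45.2 to 70.1 CPM (median 51.2), a log2 fold change of 0.23 (SE 0.12, adjusted p = 0.331).

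Pklr (ENSMUSG00000041237, chr3:89136142-89146784, plus strand), which encodes the pyruvate kinase of liver and holds the carbohydrate response element shown above, was higher in Lmna ADKO livers. Vehicle-treated controls had 182 to 422 CPM with a median of 289 and a mean of 313 ± 88.2 (SD, n = 7). Vehicle-treated Lmna ADKO livers had 356 to 525 CPM with a median of 462 and a mean of 448 ± 58.8 (SD, n = 6). All 6 exceeded the control median, 4 exceeded every control, and the remaining 2 lay within the control range. The log2 fold change was 0.52 (SE 0.18, adjusted p = 0.0471 in edgeR). It stayed between 0.42 and 0.61 when single libraries were left out, but passed the adjusted p in only 4 of 13 such fits. The 9 fits that did not pass were those without Lmna ADKO library 1, 2, 3, 5, or 6 or control library 1, 2, 4, or 7, with adjusted p from 0.0577 to 0.107. With the digits of the animal number as a covariate it was 0.60 (adjusted p = 0.0867), and without the 3 libraries that stand apart 0.57 (adjusted p = 0.0430).

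Among FGF21-treated mice, the 2 genotypes did not overlap in Pklr. Controls were at 283, 241, and 175 CPM, and all 8 Lmna ADKO livers were above them, at 289 to 611 CPM with a median of 340. Of all genes, 5.35% had groups that did not overlap in this comparison. The log2 fold change was 0.67 (SE 0.23), with an adjusted p of 0.0947 in edgeR and 0.0391 in DESeq2, and was 0.55 (adjusted p = 0.362) without the 3 libraries that stand apart. Library 3 of the FGF21-treated Lmna ADKO mice was far above the rest, at 611 CPM against 420 for the next. FGF21 itself gave -0.42 in controls and -0.27 in Lmna ADKO mice, and neither passed (adjusted p = 0.771 and 0.727). Hcn3 overlaps Pklr on the other strand with a mean of 14.8 CPM, compared with 356 CPM for Pklr.

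Khk (ENSMUSG00000029162, chr5:30921431-30931248, plus strand), which phosphorylates fructose, was higher in vehicle-treated Lmna ADKO livers by its means, but control levels spread widely. Vehicle-treated controls had 370 to 815 CPM (median 525) and Lmna ADKO livers 600.0 to 784 CPM (median 746). All 6 Lmna ADKO livers were above the control median and none above the highest control, which was library 3. This gave a log2 fold change of 0.40 (SE 0.19, adjusted p = 0.175) in edgeR, and 0.42 with the length slope as a covariate (adjusted p = 0.0208). Without the 3 libraries that stand apart it was 0.53 (adjusted p = 0.00801). Of these, only control library 3, the highest control, is in this comparison. Its length slope of -0.154 lay near the lowest of the libraries kept, -0.109. When any 1 library was left out, Khk passed in 0 of 13 fits (adjusted p of 0.0618 or more). With the digits of the animal number as a covariate the log2 fold change was 0.31 (adjusted p = 0.470). With FGF21, controls at 492.9, 571, and 897 CPM and Lmna ADKO livers at 493.4 to 1085 CPM (median 656) overlapped, with a log2 fold change of 0.06 (95% interval -0.40 to 0.51).

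**Figure D2:**
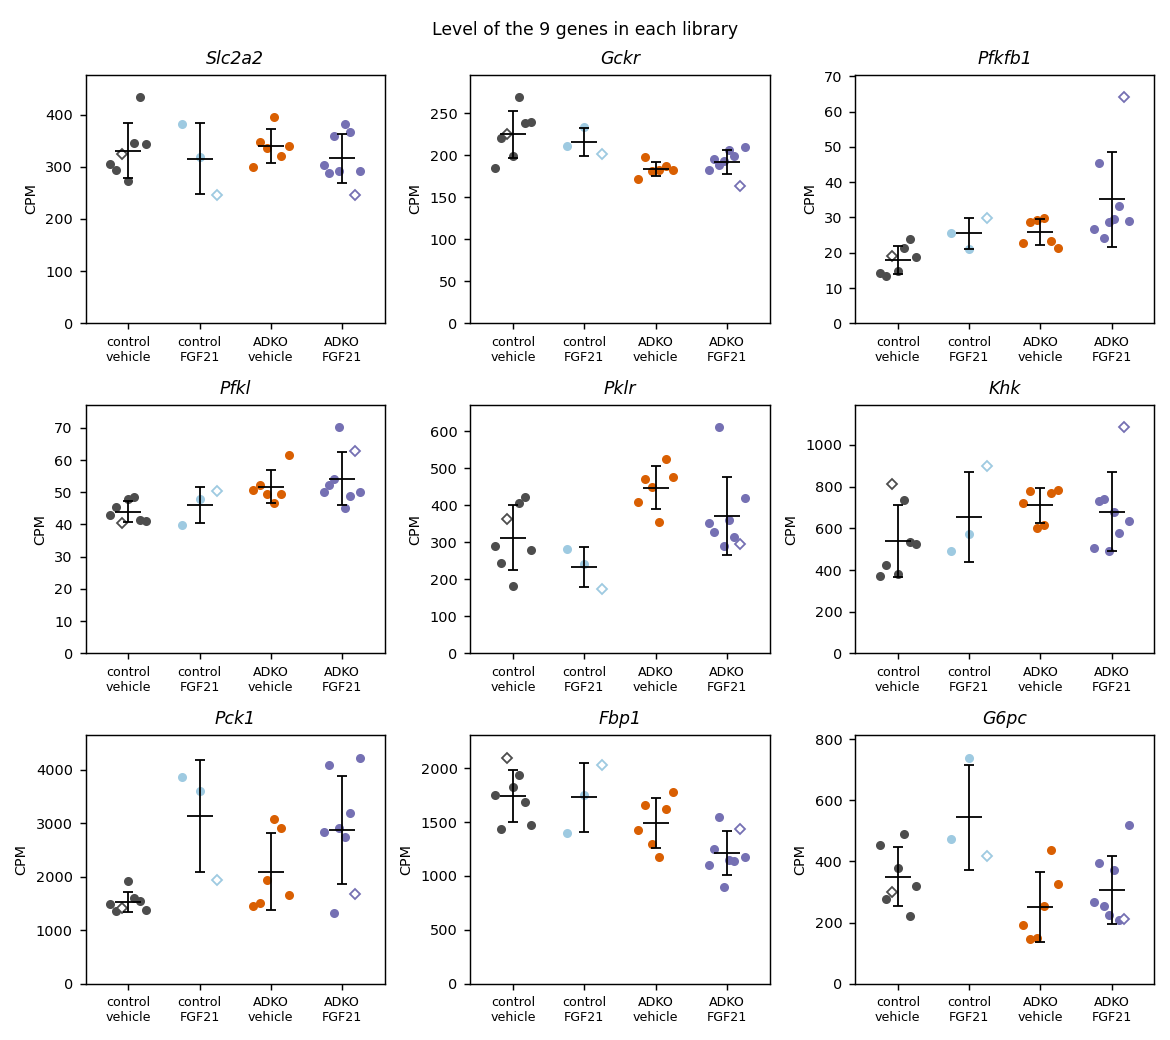
Level in CPM (y axes, from 0) of the 9 genes in each of the 24 libraries by group (x axes). Points are libraries, open diamonds the 3 libraries that stand apart, and bars the mean ± SD of the group. Pklr points of vehicle-treated Lmna ADKO livers sit between 356 and 525 CPM and those of vehicle-treated controls between 182 and 422 CPM, and Pck1 in all 3 FGF21-treated controls lies above all 7 vehicle-treated controls.

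Of the gluconeogenic genes, Pck1 (ENSMUSG00000027513, chr2:173153048-173159273, plus strand) was the one that set FGF21-treated from vehicle-treated controls. The enzyme catalyzes the committed step from oxaloacetate. Vehicle-treated controls had 1356 to 1911 CPM with a median of 1487 and a mean of 1529 ± 191 (SD, n = 7), and the 3 FGF21-treated controls had 3860, 3606, and 1936 CPM. No FGF21-treated control overlapped with vehicle, which 1.67% of all genes also showed. It differed by a log2 fold change of 1.04 (SE 0.27), the largest of the 9 genes in any of the 4 comparisons, at an unadjusted p of 0.000813 and an adjusted p of 0.302 in edgeR, which did not pass. It lay between 0.86 and 1.29 when single libraries were left out, with adjusted p of 0.145 or more. All 3 FGF21-treated controls have animal numbers of 4 digits and 6 of 7 vehicle-treated controls numbers of 3, so that the digits and FGF21 can hardly be told apart in controls, and with the digits as a covariate the log2 fold change of Pck1 was 0.91 (adjusted p = 1.0).

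In Lmna ADKO mice, Pck1 levels overlapped between treatments. Vehicle-treated livers had 1446 to 3081 CPM (median 1801), with libraries 4 and 5 at 3081 and 2902 CPM and the other 4 at 1446 to 1944 CPM, and FGF21-treated livers had 1326 to 4228 CPM (median 2869), of which 6 of 8 were above the vehicle median. The log2 fold change was 0.46 (SE 0.23, adjusted p = 0.704). Lmna ADKO against control was 0.45 with vehicle (adjusted p = 0.208) and -0.13 with FGF21 (adjusted p = 0.860), and the interaction was -0.58 (95% interval -1.28 to 0.12).

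Fbp1 (ENSMUSG00000069805, chr13:62864753-62888282, minus strand), whose product reverses the phosphofructokinase step, was lowest in FGF21-treated Lmna ADKO livers. Vehicle-treated controls had 1436 to 2099 CPM (median 1750), FGF21-treated controls 1395, 1756, and 2035 CPM, vehicle-treated Lmna ADKO livers 1176 to 1776 CPM (median 1527), and FGF21-treated Lmna ADKO livers 898 to 1545 CPM (median 1163). Of the last 8, 6 were below all 3 FGF21-treated controls and 5 below all 6 vehicle-treated Lmna ADKO livers. With FGF21, Lmna ADKO against control was -0.51 (SE 0.16), with an adjusted p of 0.0665 in edgeR and 0.0162 in DESeq2. In edgeR it passed with filterByExpr (adjusted p = 0.0391) and with the length slope as a covariate (0.0221). Without the 3 libraries that stand apart it was -0.41 (adjusted p = 0.198). With vehicle it was -0.22 (SE 0.13, adjusted p = 0.290), and FGF21 against vehicle in Lmna ADKO mice gave -0.30 at an unadjusted p of 0.0274 (adjusted p = 0.704).

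G6pc (ENSMUSG00000078650, chr11:101367561-101377903, plus strand), which releases glucose at the end of gluconeogenesis and glycogen breakdown, varied most among mice of 1 group. Its coefficient of variation was 45.7% in vehicle-treated Lmna ADKO livers, which had 146 to 439 CPM (median 224), against 223 to 489 CPM (median 319) in vehicle-treated controls. In FGF21-treated mice it was at 474, 740.0, and 419 CPM in controls and 208 to 521 CPM (median 261) in Lmna ADKO livers, of which 7 of 8 were below all 3 controls. Lmna ADKO against control was -0.47 with vehicle (SE 0.27, adjusted p = 0.265) and -0.83 with FGF21 (SE 0.31, adjusted p = 0.153). Neither passed, and DESeq2 gave an adjusted p of 0.0677 with FGF21.

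The second comparison asks whether FGF21 changed these genes in either genotype. In controls, 0 of the 9 passed the adjusted p in edgeR or DESeq2, where 0.0542% of all genes did in edgeR, and 2 (Pck1 and Pfkfb1) were at an unadjusted p under 0.05, against 6.16% of all genes. In Lmna ADKO mice, 0 of the 9 passed with either tool, where 0% of all genes did in edgeR, no group pair of the 9 was without overlap (0.0751% of all genes), and 2 (Pfkfb1 and Fbp1) were at an unadjusted p under 0.05, against 6.71% of all genes. The interaction of genotype and treatment passed for 0 of the 9 with either tool and for 0.00417% of all genes in edgeR, and 0 of the 9 had an unadjusted p under 0.05, against 4.86% of all genes. Each group enters more than 1 comparison, so that the comparisons are not independent of each other. Since 3 libraries make up the FGF21-treated controls, intervals in the comparisons that use them were wide, as for Pck1 (95% interval of the log2 fold change 0.50 to 1.57).

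Ratios of opposing genes within a library were compared as a description, with no test, and both genes of a ratio share the library. The products of Pfkl and Fbp1 work in opposite directions on the same step, and those of Pklr and Pck1 at the lower end of the pathway. The mean log2 ratio of Pfkl to Fbp1 was -5.30 in vehicle-treated controls, -5.22 in FGF21-treated controls, -4.84 in vehicle-treated and -4.48 in FGF21-treated Lmna ADKO livers. With FGF21, all 8 Lmna ADKO livers exceeded the 3 controls, a 1.67-fold difference of geometric means, and with vehicle 4 of 6 exceeded all 7 controls. Pklr over Pck1 separated the treatments of controls instead, at -2.33 ± 0.52 (SD, n = 7) with vehicle and -3.71 ± 0.22 (n = 3) with FGF21, where all 3 FGF21-treated controls were below all 7 others. Pck1 alone also separated these controls. Pklr over Pck1 averaged -2.16 in vehicle-treated and -2.90 in FGF21-treated Lmna ADKO livers, which overlapped. Of single genes, 5.35% did not overlap between genotypes with FGF21, and 1.67% between treatments of controls. Other ratios were not counted in this way.

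**Figure D3:**
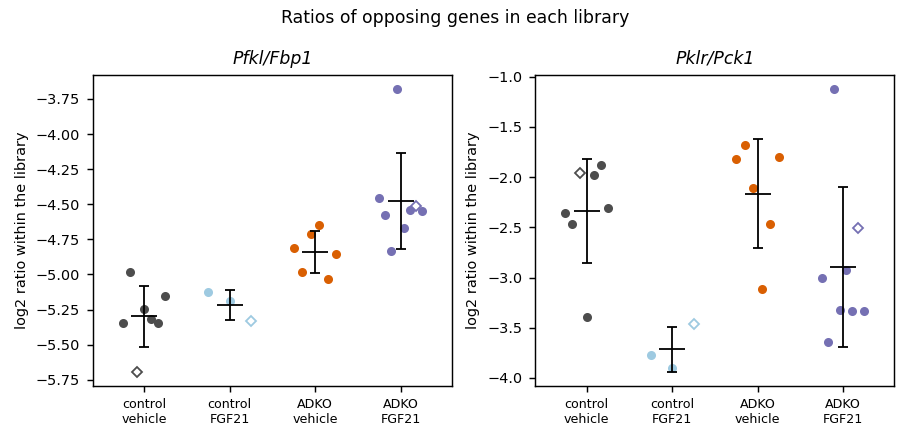
Log2 ratio of the levels of Pfkl and Fbp1 and of Pklr and Pck1 within each library (y axes) by group (x axes), with open diamonds for the 3 libraries that stand apart and bars for the mean ± SD. Pfkl over Fbp1 lies higher in all 8 FGF21-treated Lmna ADKO livers than in the 3 FGF21-treated controls.

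The neighbouring steps were counted from lists of other genes of these pathways. Of 25 other glycolysis genes, 10 rose and 0 fell in Lmna ADKO livers with vehicle (median log2 fold change 0.33), against the same 8.35% and 6.76% of all genes. These included Hk2 (1.10, SE 0.23) and Pkm (0.49, SE 0.16), a hexokinase and a pyruvate kinase mostly of tissues other than liver, and Pfkfb3, an inducible relative of Pfkfb1. Pkm passed in 4 of 13 fits that left out a single library, with adjusted p up to 0.117. Hk2 averaged 4.52 CPM in these livers and 2.11 CPM in controls. Pfkfb3 averaged 12.2 CPM against 4.95 CPM in controls (adjusted p = 0.00484), with 22.9, 15.1, and 4.31 CPM in the 3 controls given FGF21, and its log2 fold change between genotypes was -0.41 with FGF21 (adjusted p = 0.599, interaction adjusted p = 0.742). With FGF21, 2 of the 25 rose and 0 fell, where 2.14% of all genes rose and 1.71% fell, and Aldoc (1.0002, SE 0.26) was one of these. With the digits of the animal number as a covariate, 6 of the 25 rose with vehicle, and Pfkfb3 no longer passed (adjusted p = 0.0593).

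Of 19 other gluconeogenesis genes, 7 rose and 3 fell with vehicle (median 0.084), where 8.35% of all genes rose and 6.76% fell. Pc, the pyruvate carboxylase that feeds Pck1, rose by a log2 fold change of 0.45 (SE 0.10) with all 6 Lmna ADKO livers above all 7 controls. Gk, the glycerol kinase, rose by 0.86 (SE 0.12) with vehicle and 0.70 (SE 0.15) with FGF21, without overlap in either. Of all genes, 7.95% and 5.35% had groups without overlap in these comparisons. Gpt2, an alanine aminotransferase, rose by 0.83 (SE 0.17), and Got1, the cytosolic aspartate aminotransferase, fell by 1.16 on the log2 scale (SE 0.34, adjusted p = 0.0242, or 0.112 with the digits of the animal number as a covariate). Slc37a4, the transporter that brings substrate to the G6pc enzyme, did not pass (-0.36, adjusted p = 0.134), nor did Pck2 (0.39, adjusted p = 0.264).

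Of 10 other genes of fructose and polyol metabolism, 0 rose and 1 fell with vehicle, where 8.35% of all genes rose and 6.76% fell. The gene that fell was the fructose transporter Slc2a5 (-1.12, SE 0.22), at 4.74 CPM in Lmna ADKO livers and 10.3 CPM in controls. For Tkfc, which phosphorylates glyceraldehyde made from fructose, the value was 0.12 (adjusted p = 0.737). Of 6 other glucose transporter genes, 0 passed in any comparison by edgeR or by DESeq2, and 1 was at an unadjusted p under 0.05 between genotypes with vehicle.

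Of 18 glycogen genes, 5 rose and 2 fell with vehicle. For the lists of this paragraph, 8.35% of all genes rose and 6.76% fell with vehicle, and 2.14% and 1.71% with FGF21. Gbe1, the branching enzyme, rose from 101 ± 17.9 CPM (SD, n = 7) to 205 ± 6.81 CPM (n = 6) and did not overlap, whereas for Gys2 and Pygl, the liver synthase and phosphorylase, the values were -0.26 (adjusted p = 0.260) and -0.079 (adjusted p = 0.701). Of 10 pentose phosphate genes, 4 rose and 0 fell with vehicle, and the same number with FGF21, of which 2 passed without the 3 libraries that stand apart (Tkt and Taldo1) and 2 with the digits of the animal number as a covariate (Pgd and Taldo1). Pgd rose by 0.999 and 0.996 (SE 0.15 and 0.19), Tkt by 0.94 and 0.63, and Taldo1 by 0.63 and 0.64, none of them overlapping between genotypes in either comparison. Of all genes, 7.95% did not overlap with vehicle and 5.35% with FGF21. Gbe1, Pgd, Tkt, and Taldo1 were named because they were called genes with the largest changes of their lists. G6pdx, at the entry of that pathway, did not pass (0.11, adjusted p = 0.641). Of 14 genes of pyruvate fate, 3 rose and 3 fell with vehicle, among them the pyruvate dehydrogenase subunits Pdha1 (0.59, SE 0.10) and Dlat (0.67, SE 0.099). Pdk4, a kinase that inhibits this complex, did not pass (0.99, adjusted p = 0.0854), though it did in DESeq2 (adjusted p = 0.0221), with filterByExpr (0.0429), and without control library 2 (log2 fold change 1.51, adjusted p = 0.00115).

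**Figure D4:**
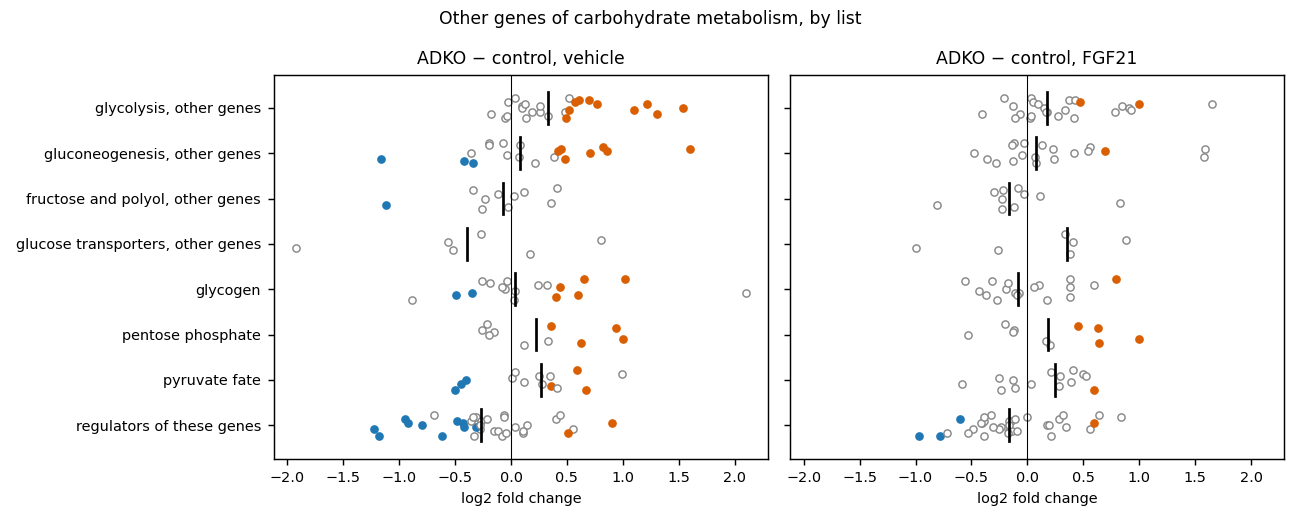
Log2 fold change between genotypes (x axes) with vehicle (left) and with FGF21 (right) of the other genes of carbohydrate metabolism, in rows by list (y axes). Each point is a gene, filled where it passed an adjusted p of 0.05 (orange higher, blue lower in Lmna ADKO livers), and black lines are list medians, 0.33 for glycolysis and -0.27 for regulators with vehicle.

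Of 34 listed regulators, 2 rose, 10 fell, and 22 did not pass with vehicle, with a median log2 fold change of -0.27, where 8.35% of all genes rose and 6.76% fell. With FGF21, 1 rose, 3 fell, and 30 did not pass, where 2.14% of all genes rose and 1.71% fell. Mlxipl, which encodes ChREBP, did not overlap between genotypes with vehicle, which 7.95% of all genes also showed. It was at 179 to 253 CPM in vehicle-treated controls and 89.0 to 125 CPM in vehicle-treated Lmna ADKO livers (log2 fold change -0.95, SE 0.13, adjusted p = 9.0e-06). Its target Arrdc4 fell by 1.18 on the log2 scale (SE 0.12), whereas Pklr, also a target, rose, and Txnip, another, had -0.33 (adjusted p = 0.400) with vehicle. With FGF21 its value was -0.97 (adjusted p = 0.0469), but it passed in only 2 of 11 fits that left out a single library, those without Lmna ADKO library 6 or control library 1, with adjusted p up to 0.280. It was -0.71 (adjusted p = 0.311) without the 3 libraries that stand apart, -0.87 (adjusted p = 0.143) with the digits of the animal number as a covariate, and -0.92 (adjusted p = 0.0676) with the length slope as a covariate. Gcgr, the glucagon receptor, fell by 0.42 (SE 0.10). Foxo1, a factor that insulin inactivates, rose by 0.51 with vehicle (SE 0.16, adjusted p = 0.0334, or 0.200 with the digits of the animal number as a covariate) and had -0.53 with FGF21 (adjusted p = 0.132), and Ppargc1a, a coactivator of gluconeogenic genes, had 0.11 (adjusted p = 0.832). With FGF21, Mlxipl fell by 0.60 (SE 0.15) and Arrdc4 by 0.78 (SE 0.14), while Gcgr had -0.24 (adjusted p = 0.312).

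These list counts depended on which mice were compared. With the digits of the animal number as a covariate, 4 gluconeogenesis genes rose and 2 fell with vehicle, 0 fructose genes rose and 2 fell, 3 glycogen genes and 3 pentose phosphate genes rose and 0 fell, 2 pyruvate genes rose and 1 fell, and 1 regulator rose and 7 fell. Without the 3 libraries that stand apart, 11 glycolysis genes rose and 0 fell, and 1 regulator rose and 13 fell. With FGF21, 0 genes of any list passed among mice with 4-digit numbers, where 4 Lmna ADKO livers and 3 controls remain. In the edgeR fit of all 24 libraries, FGF21 against vehicle passed for 0 genes of any list in either genotype, with 3 of 25 glycolysis genes and 9 of 34 regulators at an unadjusted p under 0.05 in controls, where 6.16% of all genes were. DESeq2 passed Pfkfb3, Foxo1, and Cebpb in controls, all higher with FGF21. In edgeR, Pfkfb3 rose with FGF21 in controls without the 3 libraries that stand apart (log2 fold change 1.87, adjusted p = 0.0451) and with the length slope as a covariate (1.60, adjusted p = 0.0312). When single libraries were left out, it passed in 2 of 10 fits, those without vehicle-treated control library 6 or FGF21-treated control library 3, with log2 fold changes from 0.98 to 1.94 over the 10 fits, and Foxo1 passed in 1 of 10, that without vehicle-treated control library 6. Between genotypes, Got1 passed in 8 and Foxo1 in 4 of 13 such fits with vehicle, and Aldoc and Mlxipl in 9 and Tkt in 8 of 11 with FGF21.

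Levels of several of the 9 genes moved with the length slope across libraries, and all genes of a library share its effects and depth. Over 24 libraries centred within groups, the correlation of log2 CPM with this slope was -0.72 for Khk, -0.60 for Pfkfb1, -0.47 for Fbp1, and 0.61 for Slc2a2, and lay between -0.36 and 0.41 for the others. The highest Khk level of vehicle-treated controls (815 CPM), of FGF21-treated controls (897 CPM), and of FGF21-treated Lmna ADKO livers (1085 CPM) was in each case that of the library that stands apart. Exons of Khk and Fbp1 span 1.797 and 1.702 kilobases, those of Slc2a2 5.755 and of Pfkfb1 4.017. Pfkl, the longest at 6.675 kilobases, had a correlation of -0.36, and G6pc, at 2.414, had 0.052. Gckr, Pck1, and Pklr, at 4.335, 3.429, and 3.236 kilobases, had 0.27, 0.27, and 0.41.

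**Figure D5:**
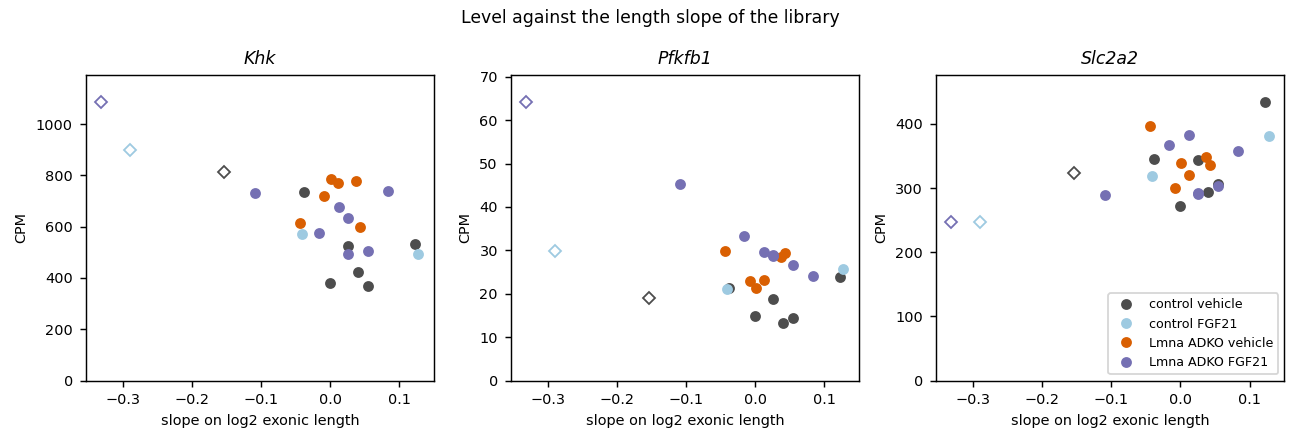
Level in CPM (y axes, from 0) of Khk, Pfkfb1, and Slc2a2 in each of the 24 libraries against the length slope (x axes), coloured by group. The length slope is that of log2 level, less the genotype median of each gene, on log2 exonic length. Open diamonds mark the 3 libraries that stand apart. The library with the lowest slope, -0.331, has the highest Khk and Pfkfb1 levels, 1085 and 64.1 CPM.

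The 9 genes did not vary together as 1 group among mice of the same genotype and treatment. Over the 24 libraries, centred within groups, the highest correlations between pairs were 0.71 for Fbp1 and Khk, 0.59 for Pfkfb1 and Khk, 0.58 for Pklr and Slc2a2, 0.53 for Gckr and Slc2a2, and 0.52 for the cAMP-responsive pair Pck1 and G6pc, and the lowest was -0.57 for Slc2a2 and Pfkl. Without the 3 libraries that stand apart, Gckr and Khk had 0.75, where they had 0.18 with all 24, Pklr and Khk 0.66 in place of 0.28, and Pfkfb1 and Khk 0.37 in place of 0.59. Among 9924 genes, Got1 was the most like Pck1 (0.92), ahead of Arl4d (0.88), Galm the most like Khk (0.91), ahead of Eno1 (0.89), and Pkm the most like Pfkl (0.84). The gene most like Pklr was its overlapping neighbour Hcn3 (0.91), before Pygl (0.82). Got1, Galm, Pkm, and Hcn3 were also first without the 3 libraries, at 0.93, 0.90, 0.82, and 0.92 for Pck1, Khk, Pfkl, and Pklr. For Gckr, Slc2a2, Pfkfb1, and G6pc another gene came first without them.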

How the data were processed

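Liver RNA-Seq of 24 mice was used. The authors deposited whole-number read counts per gene, without normalization. Per the labels, libraries were polyA-selected and strand-specific, and the submitters' processing notes name cutadapt 4.8, FastQC 0.11.8, STAR 2.7.8a, RSEM 1.3.3, and GRCm38, with Ensembl 102 per the methods, so the counts may be rounded estimates. Genes at 0 in every library had been removed. The sequencing platform differs between the labels and the methods. All columns were matched to samples (0 left over).

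Counts were TMM-scaled and tested with edgeR 4.0.16 (estimateDisp, robust glmQLFit, glmQLFTest) in R 4.3.3, in 1 fit of 4 groups with no covariate and no filter, and the script was tested on simulated data. Benjamini-Hochberg adjustment was over all 23972 genes, and calls needed an adjusted p under 0.05 and a fold above 1.5, the thresholds of the study, which used DESeq2. P-values measure the spread between mice. Intervals are approximate 95% intervals from the SE and a normal distribution, somewhat narrower than the F test of edgeR allows. Such an interval can exclude no change where the unadjusted p is above 0.05. Pck1 between genotypes with vehicle is an example (0.0020 to 0.90, unadjusted p = 0.0595 in edgeR). Log2 CPM used a prior count of 2. Alternatives were DESeq2 1.42.0, its size factors in edgeR, filterByExpr, only the groups compared, the adjusted p alone, the number of digits of the animal number as a covariate or 4-digit numbers only, the length slope as a covariate, and leaving out the 3 libraries or each library in turn. Gene positions came from GENCODE M21 (23926 genes matched). Libraries are numbered within a group by ascending animal number.

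Members, lists, and alternatives were chosen with earlier results of these data known. Named list genes were 17 always given plus up to 3 called genes per list and comparison with the largest changes, if their log2 CPM averaged 0 or more. The counts of members passing the adjusted p alone, the list counts under other settings, and the ratio alternatives were added after seeing the data. Genes most like a member were the 2 with the highest correlation among genes whose log2 CPM averaged 2 or more. Some genes of the lists are not reported here.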

Additional observations from a re-analysis of the deposited data

Results flagged for a closer look

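In 2 of 27 groups of 4 to 10 libraries, 3 for each of the 9 genes, 1 library lay far outside the others by Dixon's criterion. Chance does so in about 1 of 20 groups. Pklr was at 611 CPM in FGF21-treated Lmna ADKO library 3, where the next highest had 420 CPM. In the same library Pck1 was at 1326 CPM, the lowest of its group, and the length slope was 0.083. Khk was at 1085 CPM in FGF21-treated Lmna ADKO library 7, where the next highest had 739 CPM. In that library Pfkfb1 was also the highest of its group, at 64.1 CPM, Gckr the lowest, at 163 CPM, and the length slope was -0.331. The part of RNA handling in these values was not tested. Without FGF21-treated Lmna ADKO library 3, 61 genes were called between FGF21 and vehicle in Lmna ADKO mice, where 0 were called with it, and 0 of the 9 were among them.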

How the results depend on the processing

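No reported fold change that passed the test changed sign under any alternative run, and 185 values that passed neither way did. Of the 9 genes with vehicle, 2 passed the adjusted p between genotypes, and 0 to 2 when single libraries were left out. With DESeq2 or with filterByExpr 3 passed, and 4 with only the groups compared or without the 3 libraries that stand apart. The length slope as a covariate gave 5, and the digits of the animal number as a covariate 1 (Gckr). With the fold threshold 0 were called, 2 by the adjusted p alone, and 0 to 2 without single libraries. With FGF21, 0 passed the adjusted p, 2 by DESeq2, 1 with filterByExpr, 1 with the length slope as a covariate, and 0 to 1 without single libraries, and 1 was called with the fold threshold by DESeq2 and 0 to 1 without single libraries. In the other comparisons 0 of the 9 passed in every fit run. Of all genes, 2033 were called between genotypes with vehicle, 3623 by the adjusted p alone, and 1723 to 2083 without single libraries. With FGF21, 690 were called, 344 with only the groups compared, 148 with 4-digit numbers only, 402 without the 3 libraries, and 339 to 1149 without single libraries (339 without control library 3, 1149 without Lmna ADKO library 7). For FGF21 in controls, 13 were called, 38 by DESeq2, 0 with the digits, and 3 to 26 without single libraries. For FGF21 in Lmna ADKO mice, 0 were called, 15 by DESeq2, 2 with 4-digit numbers only, and 0 to 61 without single libraries. For the interaction, 1 was called, 13 by DESeq2, 2 with its size factors in edgeR, 2 with filterByExpr, 0 with the digits, 3 with the length slope, 5 without the 3 libraries, and 0 to 5 without single libraries. The cause was not tested. No paired analysis was possible because no groups share animal numbers in the labels. The digits of the animal number can hardly be told apart from the genotype with vehicle or from FGF21 in controls, and the 3 FGF21-treated controls limit every comparison that uses them.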
